A study of Mus musculus with 20 samples.

Results

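The genes described here encode 10 acute-phase plasma proteins of the liver: Fgl1, Lbp, Orm1, Orm2, Orm3, Itih3, Itih4, Serpina3n, Apcs and Crp. They were chosen by symbol as acute-phase genes other than the serum amyloid A genes and the binders of iron or heme. All 10 were found, under the same symbol and Ensembl identifier, in both deposited RNA-seq tables, among the 56884 genes of the male table and the 18149 genes of the female table.

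Hepatocytes secrete acute-phase proteins into plasma all the time and change their output during infection or injury. Interleukin-6 acts on the hepatocyte through its receptor, gp130 and STAT3, interleukin-1 and tumour necrosis factor act through NF-kB, and C/EBP factors and glucocorticoids add to both. Some of the proteins recognise microbes and dead cells, others carry small lipophilic molecules, inhibit proteases or bind hyaluronan. In the mouse, serum amyloid P component, the product of Apcs, is the pentraxin with the strong acute-phase response, whereas C-reactive protein, the product of Crp, responds weakly.

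RNA was measured in whole livers of male and female mice, with 3 WT and 3 Midn-T livers in each sex, and chromatin accessibility by ATAC-seq in 2 WT and 2 Midn-T livers in each sex. Midn encodes midnolin, a nuclear protein that brings transcription factors to the proteasome. WT livers are labelled with the genotype Midn XTR, the conditional gene-trap allele in its expressed state, and Midn-T livers with Midn TR, the trapped state after inversion by Cre. Cre was driven by the albumin promoter and so acts in hepatocytes, and other liver cells are part of every sample. The mice were 11 to 14 weeks old and received no treatment. Whether the WT mice carried Cre is not given in the sources used here.

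Each deposited RNA-seq table gives 1 mean per gene, taken by the authors over all 6 livers of one sex, WT and Midn-T together, after they divided counts by size factors. It is called the mean normalised count below. It has no SD and no per-liver value, so the depth of each library, the spread between livers and the level in either genotype were not available for these genes. Midn-T and WT were therefore not compared, the trapped gene could not be checked by genotype, and no difference below carries a test. The livers of each sex were normalised separately. A ratio between the female and the male table is a description in which sex, separate normalisation and any genotype effect within a sex cannot be told apart.

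The labels of tissue and sex were checked against marker genes. The 5 hepatocyte markers (Alb, Apoa1, Ttr, Cps1 and Tat) had mean normalised counts of 61944 to 1726240 in males and 39021 to 2332940 in females, whereas the 5 leukocyte markers had 16.1 to 41.1 and 9.45 to 35.0. All 4 Y-linked genes were listed in the male table and none in the female table, and Xist had a mean of 14.0 in males and 72478 in females. The female table lists no gene with a mean under 6.61, so a gene that is not listed there is not known to be at 0.

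The 10 genes together made up 0.409% of the summed mean normalised counts in males and 0.5001% in females. Their sum was 123782 of 30278000 in males and 153817 of 30759700 in females. Itih4 alone gave 45.2% of the sum of the 10 in males and 46.3% in females, Itih3 gave 20.9% and 19.7%, and Orm1 gave 12.3% and 9.998%. Thus 3 genes held most of these counts in both sexes. Orm3, the smallest, held 0.123% and 0.280%.

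These shares are of counts, to which a longer gene adds more, so levels of different genes are compared per length. Per kilobase of the union of annotated exons, the male order of the mean normalised counts was Itih4 (14942), Orm1 (11124), Itih3 (7104), Serpina3n (2106), Fgl1 (1499.6), Apcs (1355), Crp (1337), Orm2 (594), Lbp (449.9) and Orm3 (77.3). The female order was Itih4 (19004), Orm1 (11225), Itih3 (8319), Fgl1 (2541), Apcs (2295), Serpina3n (2269), Crp (1911), Orm2 (937), Lbp (498) and Orm3 (219). The same 3 genes led and the same 3 came last in both sexes with this length, and the 4 in the middle lay within a factor of 1.58 of each other in males and 1.33 in females. Since no spread between livers is known, no neighbours in this order can be said to differ.

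The order below the 3 leading genes depended on the length used. With the number of unique 100-base windows within single exons as the length, Orm2 rose from the eighth to the fourth place in both sexes (2806 in males and 4429 in females). This length leaves out windows that cross exon junctions. Orm2, with a transcript of 775 bases, had 209 windows within exons, of which 164 were unique. Its rise is thus not a measure of unique mapping alone. With the longest annotated transcript, Crp took the fourth place (3177 and 4539.8) and Lbp (863 and 955) stood above Orm2. With the Ensembl canonical transcript, a length chosen after seeing the data, Orm1 (18472 per kilobase) and Itih4 (18204) changed places in males, and Fgl1 (5836) and Crp (4469.55) moved above Serpina3n (3658). The exon unions of Fgl1 (4460 bases against 1146) and Crp (5729 against 1714) include long annotated transcripts beyond the canonical one. Itih3 stayed the third and Orm3 the last with all 4 lengths, in both sexes.

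**Figure D1:**
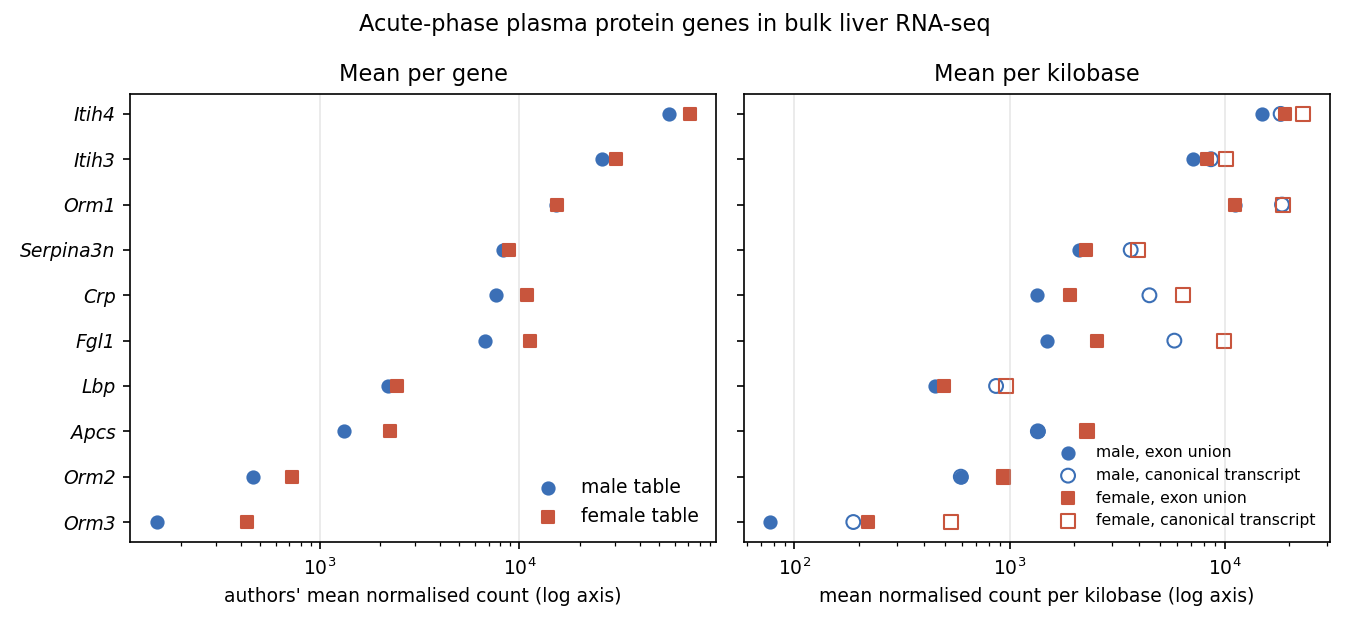
The authors' mean normalised count of each gene over 6 livers (left) and the same count per kilobase (right), both on log axes, with circles for the male and squares for the female table; open symbols on the right use the canonical transcript in place of the exon union. Itih4 lies highest on the left at 55959 in males and 71170.3 in females and Orm3 lowest at 152 and 431, the left panel is not corrected for length, and there are no error bars because each value is a single pooled mean.

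Against all genes with a mean above 0, and without regard to length, 6 of the 10 were among the 5% with the largest means in both sexes: Itih4, Itih3, Orm1, Serpina3n, Crp and Fgl1. Per kilobase of exon union, 8 of the 10 were in the top 5%, with Apcs and Orm2 joining them. The limit was 526 over 30022 genes in males and 896 over 18045 genes in females, where genes with low means are not listed. No floor on the mean was applied per kilobase. Orm2, at 594 in males and 937 in females, was near the limit, so its place depends on how many low genes are counted. Among 30022 genes with a length in males, Itih4 ranked 69 per kilobase, Orm1 83 and Itih3 123, while Orm3 ranked 7283.

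The pentraxins Crp and Apcs are pattern recognition proteins that bind phosphocholine, chromatin and other ligands on microbes and damaged cells. Crp (ENSMUSG00000037942, canonical transcript at chr1:172525614-172527540 on the plus strand of GRCm39) had a mean normalised count of 7661 in males and 10946 in females. Apcs (ENSMUSG00000026542, chr1:172721528-172722611, minus strand) had 1319 and 2235. Both means were larger in the female table. Each canonical transcript has 2 exons, and the canonical transcripts lie 194 kb apart with no other protein-coding gene wholly between them. The annotated Crp gene extends further, to position 172660598, and so comes closer to Apcs. Their coding sequences were 59.0% identical and the proteins 46.0%. Per kilobase of exon union Apcs stood at 1.01 times Crp in males and 1.20 times in females, but with the canonical transcript Crp was the higher (4469.55 against 1355 in males), so these data do not order them.

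Lbp, the lipopolysaccharide binding protein, hands bacterial lipopolysaccharide to Cd14 and the Tlr4 receptor complex. Lbp (ENSMUSG00000016024, chr2:158148413-158174773, plus strand, 15 exons) had a mean of 2188 in males and 2423 in females. Per kilobase of exon union it stood above Orm3 only. Its partners were lower per kilobase in both sexes: Cd14 had 34.3 in males and 39.5 in females, Tlr4 had 26.5 and 27.8, and Ly96, the coreceptor of Tlr4, had 70.5 and 81.0. Fgl1, a fibrinogen-like protein secreted by hepatocytes and a ligand of the T cell receptor Lag3, is on the minus strand (ENSMUSG00000031594, chr8:41644457-41668205, 8 exons). It had 6688 in males and 11333 in females, a larger mean in the female table, and per kilobase 1499.6 and 2541, against 15.9 and 11.5 for Lag3. All these are values of whole liver, in which fewer cells of a type and less RNA per cell cannot be told apart.

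Itih3 and Itih4 are heavy chains of the inter-alpha-trypsin inhibitor family, whose members are carried in plasma and, in the case of Itih3, attached to hyaluronan. Itih4 (ENSMUSG00000021922, chr14:30608378-30623801, plus strand, 23 exons) and Itih3 (ENSMUSG00000006522, chr14:30630529-30645722, minus strand, 22 exons) are transcribed towards each other and end 6727 bases apart. Itih4 had a mean of 55959 in males and 71170.3 in females, and Itih3 had 25881.5 and 30307. Per kilobase of exon union Itih4 was 2.10 times Itih3 in males and 2.28 times in females. The genes of other heavy chains and of the light chain of the family were also measured, with Itih2 and Ambp picked after their values were seen. Itih1 had 19463 and 24346, Itih2 had 33413.5 and 42301, and Ambp, which encodes the light chain bikunin, had 45319.8 and 43861.

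Serpina3n is a serine protease inhibitor of the alpha-1-antichymotrypsin type, expanded in the mouse to a cluster of genes. Serpina3n (ENSMUSG00000021091, chr12:104372810-104380597, plus strand, 5 exons) had a mean of 8234 in males and 8869 in females. Within the cluster, Serpina3k, picked after its values were seen, was higher than Serpina3n per kilobase of exon union in both sexes, at 38778 against 2106 in males and 21131 against 2269 in females. Serpina3m had 1327 and 2453 per kilobase. Serpina3n was thus neither the largest of its cluster nor the one whose means differed most between the tables.

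The orosomucoids Orm1, Orm2 and Orm3 are alpha-1-acid glycoproteins, lipocalins that bind drugs and other small molecules. They lie in a row on the plus strand of chromosome 4: Orm1 (ENSMUSG00000039196, chr4:63262752-63266405), Orm3 (ENSMUSG00000028359, chr4:63274364-63277748) and Orm2 (ENSMUSG00000061540, chr4:63280686-63284115), each with 6 exons. Orm1 had a mean of 15239.8 in males and 15378 in females, Orm2 had 460.2 and 726, and Orm3 had 152 and 431. Per kilobase of exon union Orm1 was 18.7 times Orm2 in males and 12.0 times in females, and 144 times and 51.2 times Orm3. These ratios depended on the length: over 4 lengths, Orm1 was 9.97 to 31.1 times Orm2 in males and 6.37 to 19.9 times in females, and 98.3 to 307 times and 35.0 to 109 times Orm3. The row of genes was thus dominated by Orm1 in both sexes, and by less in the female table.

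How well reads can be told apart bears on these values, because the authors counted only uniquely mapped reads. The coding sequence of Orm1 was 89.9% identical to that of Orm2 and 86.1% to that of Orm3, and Orm2 and Orm3 were 88.0% identical. The longest run of identical bases inside the coding sequences of Orm1 and Orm2 was 104 bases, spanning the end of exon 5 and the start of exon 6. It is shown from GRCm39 with the same stretch of Orm3, in which capitals mark the 3 bases that differ from Orm1 and Orm2.
Orm1: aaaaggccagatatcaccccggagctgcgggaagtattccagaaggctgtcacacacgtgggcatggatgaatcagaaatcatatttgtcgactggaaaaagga
Orm2: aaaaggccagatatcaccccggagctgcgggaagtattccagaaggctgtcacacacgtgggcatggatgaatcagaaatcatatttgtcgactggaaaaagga
Orm3: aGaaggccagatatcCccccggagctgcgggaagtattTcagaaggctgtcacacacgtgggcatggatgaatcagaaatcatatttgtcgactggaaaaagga
A read of 100 bases inside this stretch matches Orm1 and Orm2 equally well and differs from Orm3.

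Most windows of 100 bases and all windows of 150 bases were unique. Of the 100-base windows of the canonical transcript, 93.5% of those of Orm1 and 92.0% of those of Orm2 occurred nowhere else in GRCm39 or in transcripts of other genes, 99.8% for Serpina3n and 100% for the other 7 genes. Orm1 and Orm2 shared 47 such windows, of which 5 lay inside the stretch shown and 42 in a longer run of 141 bases that crosses the stop codon into the 3′ untranslated region. At 150 bases, the length of 1 sequenced read of a pair, every window of all 10 genes was unique. At 31 bases the share fell to 67.0% for Orm1, 64.3% for Orm2, 78.2% for Serpina3n and 91.0% for Orm3. The values of Orm1, Orm2 and Serpina3n remain uncertain, since trimmed or short fragments of shared stretches would be dropped or misplaced. How many reads were that short is not known, so the shares at 31 bases do not measure this uncertainty.

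**Figure D2:**
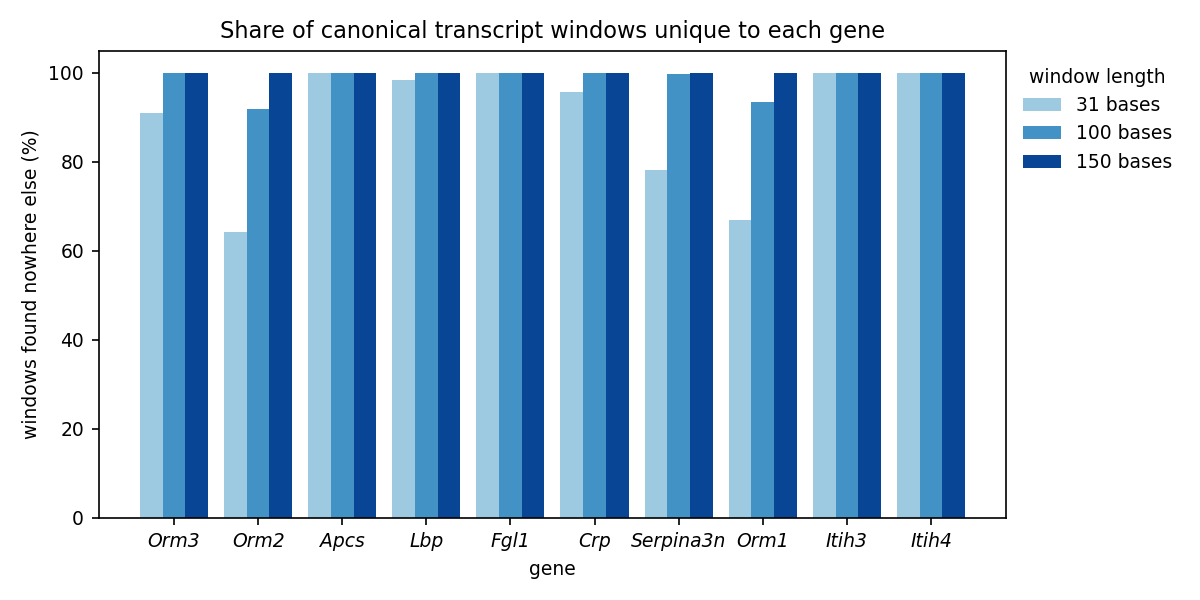
The share (%) of 31-, 100- and 150-base windows of each gene's canonical transcript that occur nowhere else in the genome or in transcripts of other genes, with genes on the horizontal axis in rising order of the male mean. The bars for 31 bases are lowest for Orm2 (64.3%) and Orm1 (67.0%), and all bars for 150 bases reach 100%.

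The female and male tables were then set side by side. Each mean was divided by the sum over the genes listed in both tables, and the ratio of the scaled values is the female over the male one. Over the 16283 genes with a mean of at least 10 in both tables, 53.7% had a ratio above 1 and 8.0% a ratio of at least 1.5. The median was 1.02, and from the lowest to the highest 5% the ratios ran from 0.700 to 1.65.

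Of the 10 genes, 9 had a ratio above 1 and 4 had a ratio of at least 1.5. The 4 were Orm3 (2.79), Fgl1 (1.67), Apcs (1.67) and Orm2 (1.55). Crp (1.41), Itih4 (1.25), Itih3 (1.15), Lbp (1.09) and Serpina3n (1.06) followed, and Orm1 was at 0.992. The summed level of the 10 had a ratio of 1.22. Among the 16283 genes, 0.774% had a higher ratio than Orm3, 4.79% than Fgl1, 4.80% than Apcs and 6.72% than Orm2, whereas 55.3% had a higher ratio than Orm1. With the tables scaled to albumin, whose own ratio was 1.33, only 5 of the 10 stayed above 1, namely Orm3, Fgl1, Apcs, Orm2 and Crp, and only Orm3 (2.10) stayed at 1.5 or more. Under that scaling Fgl1 was at 1.25, Apcs at 1.25 and Orm2 at 1.17. Scaling to albumin divides the ratio of every gene by the same factor, so 53.7% and 8.0% do not apply to these counts. The shares of all genes above 1 and at 1.5 or more under it were not computed. The share of genes with a higher ratio than each of the 10 is the same under any of these scalings. For Itih4, Itih3, Lbp and Serpina3n the side of 1 therefore differed between scaling to albumin and the other scalings used. Albumin had the highest ratio of the 5 hepatocyte markers. Of the others, Cps1 was at 1.08, Ttr at 0.915, Apoa1 at 0.722 and Tat at 0.620, and none of these was used for scaling.

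**Figure D3:**
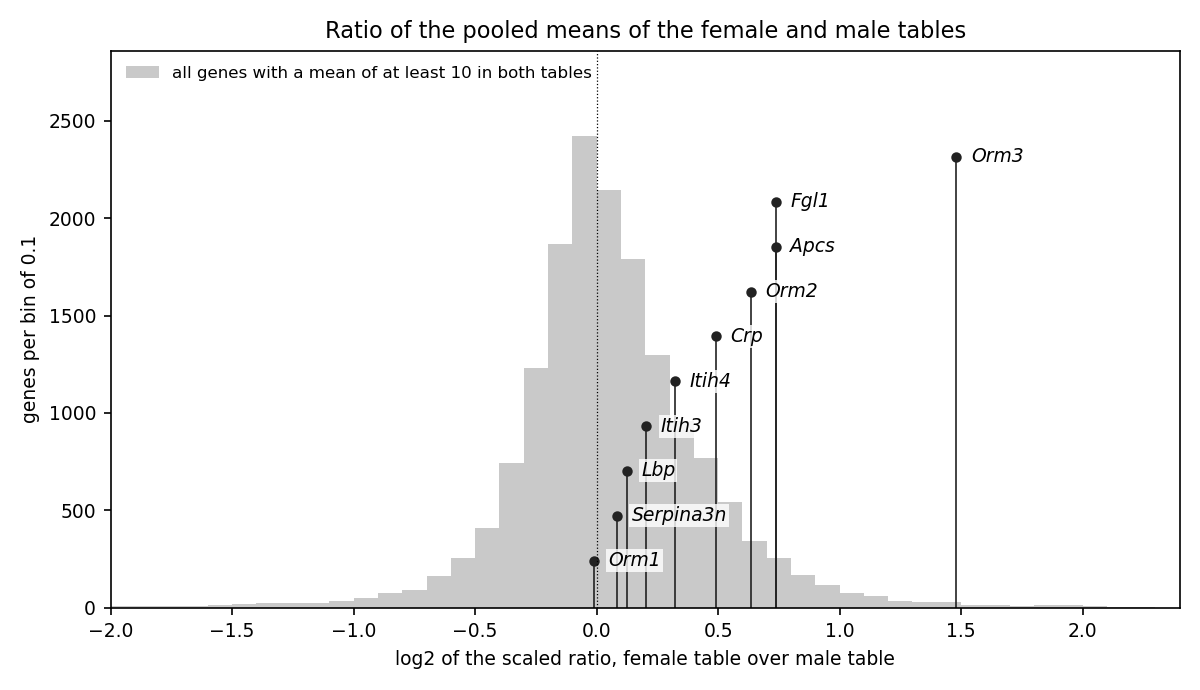
Distribution of the log2 of the scaled ratio of the female over the male pooled mean for 16283 genes (grey bars, number of genes per bin, with 90 genes outside the plotted range), with the 10 acute-phase genes as lines at their own ratio; the height of a line has no meaning and serves only to separate the names. Orm3 lies farthest right at a ratio of 2.79, Fgl1, Apcs and Orm2 lie in the right flank, and Orm1 lies at 0.992.

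Markers of other liver cells also differed between the tables. The 3 stellate cell markers had ratios of 1.25 to 1.40, the 5 Kupffer cell markers 0.647 to 1.27, the 3 sinusoidal endothelial markers 0.731 to 1.19 and the 4 leukocyte markers with a ratio 0.590 to 1.11. Their part in the ratios of the 10 genes was not tested. In whole liver, fewer cells of a type and less RNA per cell cannot be told apart.

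The serum amyloid A genes and the iron and heme genes did not lean the same way as the 10 genes in these pooled means. No difference between the groups was tested, and other acute-phase genes are not covered by these lists. All 4 serum amyloid A genes had ratios below 1, with a median of 0.259. Saa1, the lowest at 0.123, had 3869.5 in males and 486 in females, and Saa4, the highest at 0.619, had 9939 and 6256. Of the 7 iron and heme genes, 3 were above 1 and 4 below, with a median of 0.673. This split is near that of all 16283 genes, of which 53.7% were above 1. Of the 3 above 1, Cp and Trf were close to it, both at 1.02. Cp fell to 0.999 after scaling to the median ratio. Hp, the hemoglobin scavenger haptoglobin, was the lowest at 0.476, with 79226 and 38367, and Hamp2, a hepcidin paralogue, the highest at 19.0, with 496 and 9577. The median of the 10 genes described here was 1.33.

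Among the inducers, receptors and transcription factors of the response, more ratios were below 1 than above it, some by little. Of 21 genes in this list, 19 were listed in both tables. Of these, 14 had a ratio below 1 and 5 above 1, whereas 53.7% of all 16283 genes were above 1. The median of the list, 0.918, lay between the lower and upper quartiles of all 16283 genes, 0.901 and 1.19. Il6st (0.998) and Stat3 (0.976) were close to 1. The side of 1 depended on the scaling for Il6st, at 1.02 with no scaling. It did so too for Tyk2, at 1.0003, which fell to 0.982 after scaling to the median ratio. Whether the list differs from other genes was not tested. Cebpd, a C/EBP factor induced in the acute phase, was the lowest at 0.540, with 180.4 in males and 99.1 in females. Il6 and Tnf had 3.11 and 10.9 in males and were not listed in females.

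**Figure D4:**
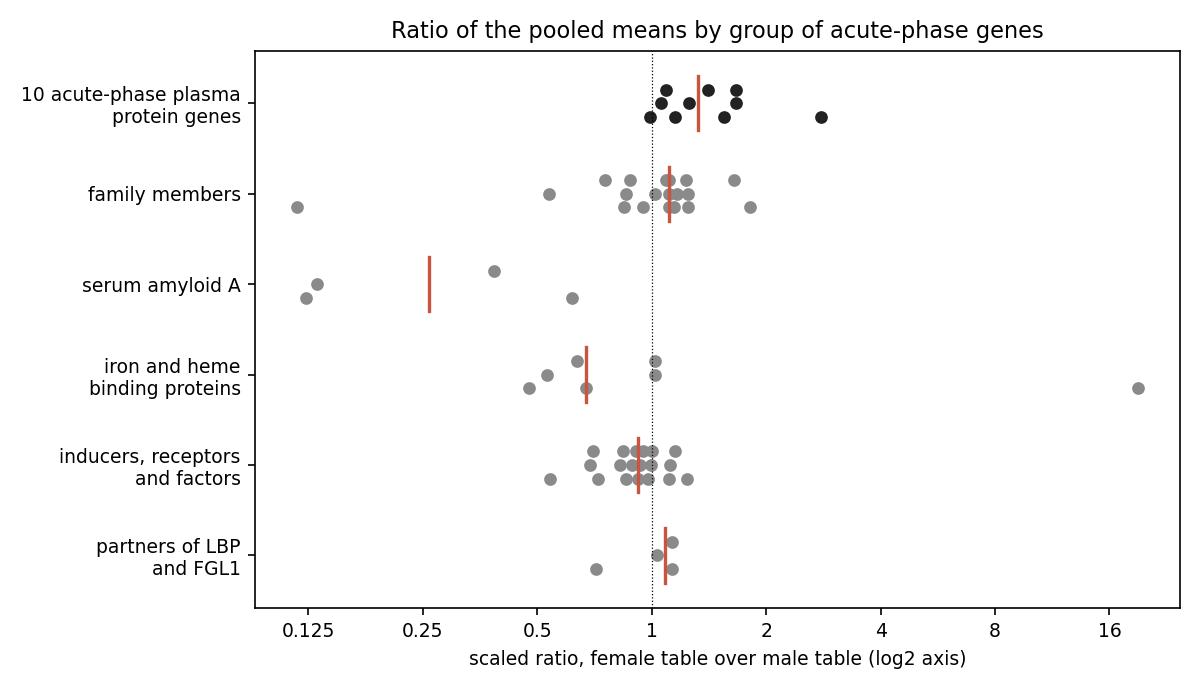
The scaled ratio of the female over the male pooled mean (log2 axis) for the genes of 6 lists. These are the 10 genes, their families, serum amyloid A, iron and heme genes, inducers, receptors and factors, and partners of LBP and FGL1. Each point is 1 gene, spread vertically only for legibility, with a red line at the median of the group. Genes without a ratio are not drawn, and not all family members or partners are acute-phase genes. The 10 genes described here have a median of 1.33, serum amyloid A genes 0.259, and the rightmost point is Hamp2 at 19.0.

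Within the families of the 10 genes, 19 of 27 relatives had a ratio, of which 12 were above 1 and 7 below, with a median of 1.11. Over all 16283 genes, 53.7% were above 1 and the median was 1.02. Whether the relatives differ from other genes was not tested. Serpina1e, an alpha-1-antitrypsin gene, was the lowest at 0.117, with 233028 in males and 27721 in females. Serpina3m was the highest at 1.82. Itih1 (1.23) and Itih2 (1.25) stood beside Itih3 and Itih4, and Serpina3k (0.536) stood well below Serpina3n.

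RefSeq promoter windows, from 250 bases before to 50 after the start in GRCm38.p6, were given for 7 of the 10 genes: Crp, Apcs, Orm2, Orm3, Serpina3n, Itih3 and Itih4. Orm1, Fgl1 and Lbp had no entry. Of the 4 genes with a ratio of at least 1.5, which only Orm3 kept under scaling to albumin, those of Orm2, Orm3 and Apcs are shown. The 150 bases before the start and 20 after it are printed below, so that the close paralogues Orm2 and Orm3 can be compared. Capitals mark matches to the C/EBP, IL-6 response element and TATA box motifs, on either strand.
Orm2 (chr4:63362299-63362468, plus strand): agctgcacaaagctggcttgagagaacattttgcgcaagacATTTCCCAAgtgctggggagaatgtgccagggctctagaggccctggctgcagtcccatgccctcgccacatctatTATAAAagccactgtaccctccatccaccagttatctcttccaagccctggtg
Orm3 (chr4:63356008-63356177, plus strand): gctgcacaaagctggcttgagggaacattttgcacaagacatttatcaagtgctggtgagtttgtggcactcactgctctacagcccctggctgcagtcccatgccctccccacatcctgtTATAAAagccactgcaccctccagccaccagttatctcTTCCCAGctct
Apcs (chr1:172895035-172895204, minus strand): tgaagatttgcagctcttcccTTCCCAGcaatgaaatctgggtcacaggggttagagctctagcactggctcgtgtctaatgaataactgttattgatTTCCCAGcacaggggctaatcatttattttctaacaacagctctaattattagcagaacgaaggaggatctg
Orm2 and Orm3 were 86.2% identical over the whole window, 263 of 305 aligned positions. The C/EBP match of Orm2 began 109 bases before the start, where Orm3 held no exact match, and both had a TATA box near the start. Stretches that differ from the searched letters were not counted in either gene, so this does not show that Orm3 lacks a C/EBP site.

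The motifs were searched without mismatch on both strands of the 7 windows and of all 32851 RefSeq promoters. The C/EBP motif TTNNGNAAT was found in 3 of 7 (Crp, Orm2 and Serpina3n) and in 11.5% of all promoters. The IL-6 response element CTGGGAA was found in 2 of 7 (Apcs, with 2 matches, and Orm3, after the start) and in 11.1% of all. The STAT motif TTCNNNGAA was found in 2 of 7 (Apcs and Itih4) and in 8.3% of all, and the NF-kB motif GGNNTTTCC in 1 (Serpina3n) and in 5.82%. TGTTCT, a single arm of the glucocorticoid receptor element, was found in 4 of 7 and in 19.0% of all. The letters TATAAA of the TATA box were found in 5 of 7 and in 13.6% of all. They began 29 to 33 bases before the start in Crp, Orm2 and Orm3, but 3 bases before it on the other strand in Itih4 and after it in Itih3. None of the 7 held the HNF4 motif CAAAGTCCA, which 0.475% of all promoters held. A match is a run of letters and not evidence of binding.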

How the data were processed

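RNA-seq was done on 12 livers and ATAC-seq on 8. For RNA-seq, the authors used STAR 2.7 to align paired 150-base reads to GRCm39. Reads that mapped to 1 place were counted per Ensembl gene by HTSeq, set for a reverse-stranded library. The authors ran DESeq2 on each sex separately. The deposited signal used here is the mean over 6 livers of counts that the authors divided by size factors. The remaining columns hold the authors' own fold changes, standard errors, statistics and p-values of Midn-T against WT, and were not used. The ATAC-seq tables hold peaks the authors selected by their own comparison, and were not used either; the titles of some ATAC-seq samples also disagreed with their library names, which were followed. Samples were grouped from GEO's labels. Depth per library is unknown, and no interval or test could be given.

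Genes were joined by Ensembl identifier. GENCODE M39 held 56323 of the male identifiers, and its exon unions, longest and canonical transcripts and unique 100-base windows gave lengths, though the authors counted on an older annotation. Window uniqueness was computed over both strands of GRCm39 and all transcripts, after a check on simulated sequences. Female means were set against male means after scaling to the sum over genes listed in both tables, and the background used genes with a mean of at least 10 in both. Named genes were the 10 genes and, from fixed lists, at most a few per list (lowest, highest or neighbours of a member). The members and lists were chosen with earlier results of these data known. Some items are not reported here. Serpina3h had 2 rows with the same symbol and was given no value. Analyses used Python 3.11.15, numpy 2.4.6, pandas 2.3.3, Biopython 1.88 and matplotlib 3.10.9.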

Additional observations from a re-analysis of the deposited data

How the results depend on the processing

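The share of the summed counts was 0.431% in males and 0.531% in females without mitochondrial genes and loci like ribosomal RNA, 0.484% and 0.612% without the 10 genes with the largest means, and 0.523% and 0.624% per exonic length. The female over male ratio of the summed level of the 10 genes was 1.24 with no scaling, 1.20 after scaling to the median ratio of genes listed in both tables, 1.27 on sums without mitochondrial genes, loci like ribosomal RNA and the largest genes, 1.20 without Itih4, and 0.919 after scaling to Alb. Scaling to Alb also took Itih4 to 0.941, Itih3 to 0.866, Lbp to 0.819 and Serpina3n to 0.797, and left 1 of the 10 genes, Orm3, at 1.5 or more in place of 4. The other scalings left 4. The share of all genes at 1.5 or more was computed only under scaling to the sum over genes listed in both tables. The ratio of Orm1 crossed 1, to 1.01 with no scaling and to 1.03 on the reduced sums. Apart from leaving out Itih4, each change in a ratio follows from the factor between the tables, which ran from 0.979 to 1.35, and the other member ratios kept their side of 1. The number of genes in the top 5% was 6 in both sexes, also among genes with a mean of at least 10. It was 8 per exonic length, where no such floor was applied. Some of the loci like ribosomal RNA, 8 in number, were named with earlier results of these data known. No paired analysis was possible because no value of a single sample is used, and for the same reason no replicate could be left out in turn. The counting error and the spread between livers behind each pooled mean are unknown.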
